A study of Vitis vinifera with 24 samples.

Results

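The last phase of berry ripening was followed in grapevines that had lost their basal leaves at veraison, by setting the transcript profile of berries at harvest (H) against that at the end of veraison (EV). The members are the 6 arrays titled as veraison defoliation (V), 3 at EV and 3 at H, of 24 arrays in all, chosen by their labels alone. The vines were adult Sangiovese, a red wine grape, of 1 clone on 1 rootstock in a single field. V vines were stripped by hand of the main and lateral leaves of the 6 basal nodes of the shoots on Julian day 211. Those of the pre-bloom group (PB) were stripped in the same way on Julian day 147, and control vines (C) kept their leaves. C and PB berries were also sampled at the beginning of veraison (BV), whereas V berries were not. Each array held the RNA, without seeds, of a pool of berries from 3 vines of 1 block, so a single berry or vine was not resolved and fewer cells of a type cannot be told apart from less RNA per cell. The C arrays at EV and H carry the labels of a cluster-thinning experiment and the other 18 those of the defoliation experiment. At these stages the control and the label set therefore cannot be told apart. Nor can stage and label set from BV to EV in C.

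Veraison is the turn from a hard, green, acid berry to a soft and sweet one that, in red cultivars, gains anthocyanin colour. After it the berry draws sugar from the leaves through the phloem, its malic acid is used up, its cell walls loosen and its skin goes on filling with pigment and aroma compounds until harvest. Leaves near the cluster both feed the fruit and shade it, so their removal at veraison takes away a source of sugar and exposes the fruit to light and heat while this last phase is still ahead.

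The array was a 1-colour NimbleGen design for grapevine on which each row of the deposited table is a probe. Intensities were compared on the log2 scale, where a difference of 1 is a 2-fold change, over 117999 grapevine probes and, separately, 19091 random-sequence probes, the array's negative controls. The identifiers are paired with genes in no table used here. The results are therefore given per probe, no gene is named, and the berry tissue could not be checked against marker genes.

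V at EV had the smallest spread between replicates of the 8 groups. Pooled over probes, the replicate SD came to 0.42 log2 units at EV and 0.60 at H in V, and the groups ranged from 0.42 to 1.01. Pearson's r between replicates lay between 0.970 and 0.974 at EV and between 0.919 and 0.963 at H. The EV replicates were not equally far from harvest. EV replicate 1 had r = 0.952, 0.9498 and 0.908 with H replicates 1, 2 and 3, whereas EV replicate 2 had 0.917, 0.917 and 0.885 and EV replicate 3 had 0.923, 0.929 and 0.895. EV replicate 1 was thus nearer to each harvest array than the other EV arrays were. An array's background level, taken as the mean log2 intensity over its random-sequence probes, was 5.94 ± 0.0028 (SD, n = 3) at EV and 5.97 ± 0.06 at H (exact permutation test, two-sided p = 0.5, with 0.1 the smallest that 3 arrays against 3 allow). The share of grapevine probes brighter than the 95th percentile of the random-sequence probes of the same array was 60.4% ± 0.31 at EV and 59.7% ± 2.54 at H (exact permutation p = 0.7).

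Between EV and H the differences in V berries were larger than the replicate spread over the whole array, but no single probe passed the stricter threshold. The root mean square difference over all grapevine probes was 0.81, where the replicate spread alone would give 0.42, and the median difference was 0.04. Over the random-sequence probes the root mean square difference was 0.56. In a limma fit of the 6 V arrays, 0 of 117999 probes (0%) passed, which asked for an adjusted p (Benjamini-Hochberg) under 0.02 and a 2-fold difference. The lowest adjusted p was 0.02131 and was shared by 672 probes. Before adjustment 31694 probes, 26.9%, were under 0.05. Other tests at the same 2% did make calls, with 11325 probes by SAM, which ranks probes against all 20 relabellings of the arrays, and 3442 by a limma model over all 24 arrays. Single arrays decided the count as well, which was 752 without EV replicate 1 (579 higher and 173 lower at H), 1673 without H replicate 1 (140 higher and 1533 lower) and 0 without any of the other 4.

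At an adjusted p below 0.05 by the same limma fit, a threshold adopted for the description below once the count at 0.02 was known, 8884 probes differed by at least 2-fold (7.53%). Of these, 3420 were higher at harvest (2.9% of all probes) and 5464 lower (4.63%), and they are called the higher and the lower set from here on. With all 6 arrays the lower set was the larger. The median difference was 1.57 in the higher set (interquartile range 1.29 to 1.99, largest 4.79) and -1.78 in the lower set (-2.30 to -1.42, largest in size -5.78). A 4-fold difference was reached by 827 probes of the higher set (24.2%) and by 2040 of the lower set (37.3%), and an 8-fold difference by 137 and 482. By fitted difference alone, 233 of all probes were at least 8-fold higher and 516 at least 8-fold lower. The size of the sets rested on single arrays, with 0 probes called at 0.05 without EV replicate 2, EV replicate 3 or H replicate 2, 7267 without H replicate 1 and 5196 without H replicate 3. Without EV replicate 1 the count was 5796 and the balance turned, with 2993 probes higher and 2803 lower. With each array's background level as a covariate the count was 1579 (185 higher and 1394 lower).

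The random-sequence probes set the scale of what the arrays gave with no grapevine target. By limma 0 of 19091 passed at 0.02, 112 (0.587%) passed at 0.05 with a 2-fold difference, and 2540 (13.3%) had an unadjusted p below 0.05. The share at 0.05 in grapevine probes, 7.53%, was larger, but the grapevine and random-sequence probes were adjusted separately. An adjusted p of 0.05 is therefore not the same cut-off in both. Before adjustment the shares below 0.05 were 26.9% and 13.3%. The random-sequence probes were also dim, with a mean level of 5.94 at EV and 5.97 at H. In the dimmest class of grapevine probes, with mean levels from 4.78 to 6.45, only 1.79% were called at 0.05. The shares in this paragraph were not matched for brightness. At harvest 20885 grapevine probes (17.7%) lay above all 3 EV arrays and 19841 (16.8%) below them, 34.5% in all, against 17.9% of the random-sequence probes. A difference of at least 4-fold in either direction was found for 3.1% of grapevine and 0.32% of random-sequence probes.

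**Figure D1:**
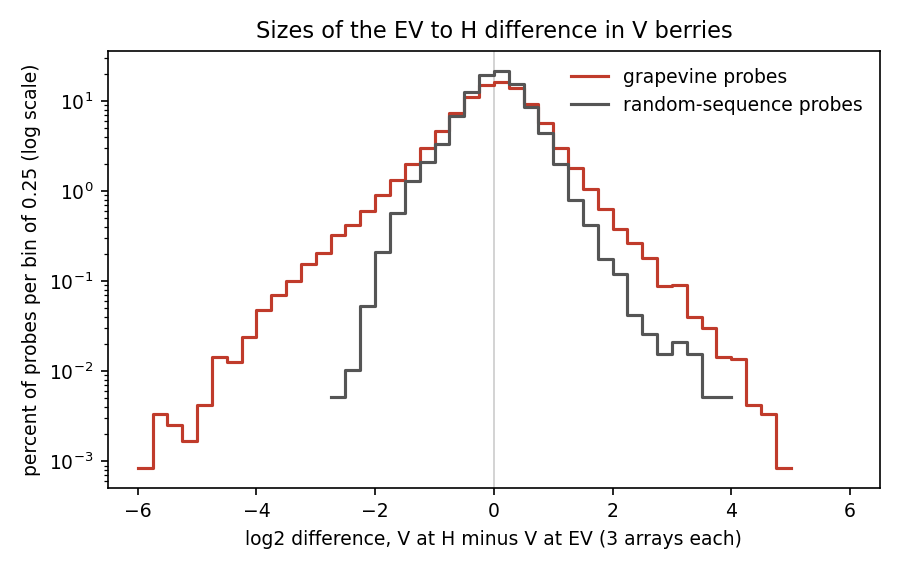
Distribution of the log2 difference between V at H and V at EV (means of 3 arrays each), as the percent of probes per bin of 0.25 on a log scale, for 117999 grapevine probes and 19091 random-sequence probes. The grapevine distribution reaches further on both sides and furthest on the lower side, to -5.78 against 4.79 upwards.

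Probes of both sets passed through the middle of the intensity range rather than its ends. The median level of the higher set moved from 7.74 at EV to 9.56 at H, that of the lower set from 10.12 to 8.02, while the median of all probes was 8.46 and 8.42. With the probes split by mean level over the 6 arrays into 4 classes of equal size, 1.79% of the dimmest class, 10.8% and 11.3% of the middle ones and 6.22% of the brightest were called. On single arrays, the median of the higher set was 8.36, 7.51 and 7.51 at EV in replicates 1, 2 and 3 and 9.49, 9.49 and 9.72 at H. The lower set stood at 9.88, 10.40 and 10.07 at EV and at 8.51, 8.01 and 7.68 at H. EV replicate 1 was the array nearest to harvest in both sets, and H replicate 1 the one nearest to EV in the lower set. These arrays chose the sets, so their levels are a description.

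The changes were set beside the background of the arrays. With each array's own 95th percentile of random-sequence probes as its limit, 955 probes (0.809% of all) lay below it on all 3 EV arrays and above it on all 3 H arrays. Of these, 544 were in the higher set (15.9% of the set). The opposite course, above at EV and below at H, was taken by 1588 probes (1.35% of all), of which 1038 were in the lower set (19% of the set). Another 1080 probes of the higher set (31.6%) and 1537 of the lower set (28.1%) were on both sides of the limit within a stage, as were 24104 of all probes, and the 4 probes named below are of this kind. The most frequent course was a difference above background throughout, with 1534 probes of the higher set (44.9%) and 2562 of the lower set (46.9%) above the limit on all 6 arrays, as were 48.6% of all probes. A further 262 and 327 called probes (7.66% and 5.98% of the sets, against 28.8% of all probes) lay under the limit on all 6 arrays, where a fold change has little meaning.

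The probes with the largest differences among called probes whose arrays at H all lay on one side of those at EV are named here, 2 in each direction, chosen at 0.05 because none passed at 0.02. The largest increase was that of VitusP00171937. Its log2 intensity at EV was 9.83, 6.44 and 5.37 in replicates 1, 2 and 3, and at H it was 11.58, 12.88 and 11.55. All harvest arrays were higher than all EV arrays, with EV replicate 1 well above the other EV arrays. The difference was 4.79 (standard error 1.05, limma adjusted p = 0.04036). In PB and C berries it lay under the 95th percentile of the random-sequence probes on all 3 EV arrays, so only a bound can be given there. With that percentile as the level of each such array, it was higher at H by at least 4.85 in PB (adjusted p of the unbounded fit 0.005536) and by at least 2.35 in C (0.02572) on the log2 scale.

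VitusP00181639 had a like profile. It read 10.34, 6.57 and 5.66 on the EV arrays and 11.94, 12.12 and 12.33 on the H arrays, so EV replicate 1 again stood apart while the harvest arrays were close together. The difference was 4.61 (standard error 1.07, limma adjusted p = 0.04505). It too was under the limit on all 3 EV arrays in PB and in C, and higher at H by at least 3.99 and 1.93 there. In V both probes were under the limit on 2 of the 3 EV arrays, and with the limit as a floor on those arrays the increases came to 3.68 and 3.64 on the log2 scale, or 12.9-fold and 12.5-fold.

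The largest decrease was that of VitusP00041031. It read 13.26, 13.11 and 14.00 on the EV arrays, among the brightest probes, and 10.98, 6.22 and 5.82 on the H arrays. H replicate 1 had lost far less than the other harvest arrays, although it too was below every EV array. The difference was -5.78 (standard error 1.24, limma adjusted p = 0.03838). In PB, where all 3 H arrays were under the limit, it was lower at H by a difference of -4.72 or more in size (adjusted p of the unbounded fit 0.008111). In C, where 1 EV array and 2 H arrays were under the limit, the fitted difference was -4.04 (adjusted p = 0.08127). VitusP00041070 followed the same course, with 12.76, 12.23 and 13.41 at EV, 9.99, 5.93 and 5.53 at H and a difference of -5.65 (standard error 1.09, limma adjusted p = 0.03143). In PB it was under the limit on all 3 H arrays and lower by a difference of -4.29 or more in size (adjusted p of the unbounded fit 0.005728). In C it was under the limit on all 3 H arrays and 2 of the 3 EV arrays, which read 5.49, 11.44 and 8.42, so no size is given. In V both decreasing probes were under the limit on 2 of the 3 H arrays, and with the floor the decreases were 26.8-fold and 21.4-fold. For none of the 4 probes did the difference in V pass a limma test against that in PB (adjusted p between 0.6574 and 0.9817) or against that in C (between 0.4764 and 0.8793).

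**Figure D2:**
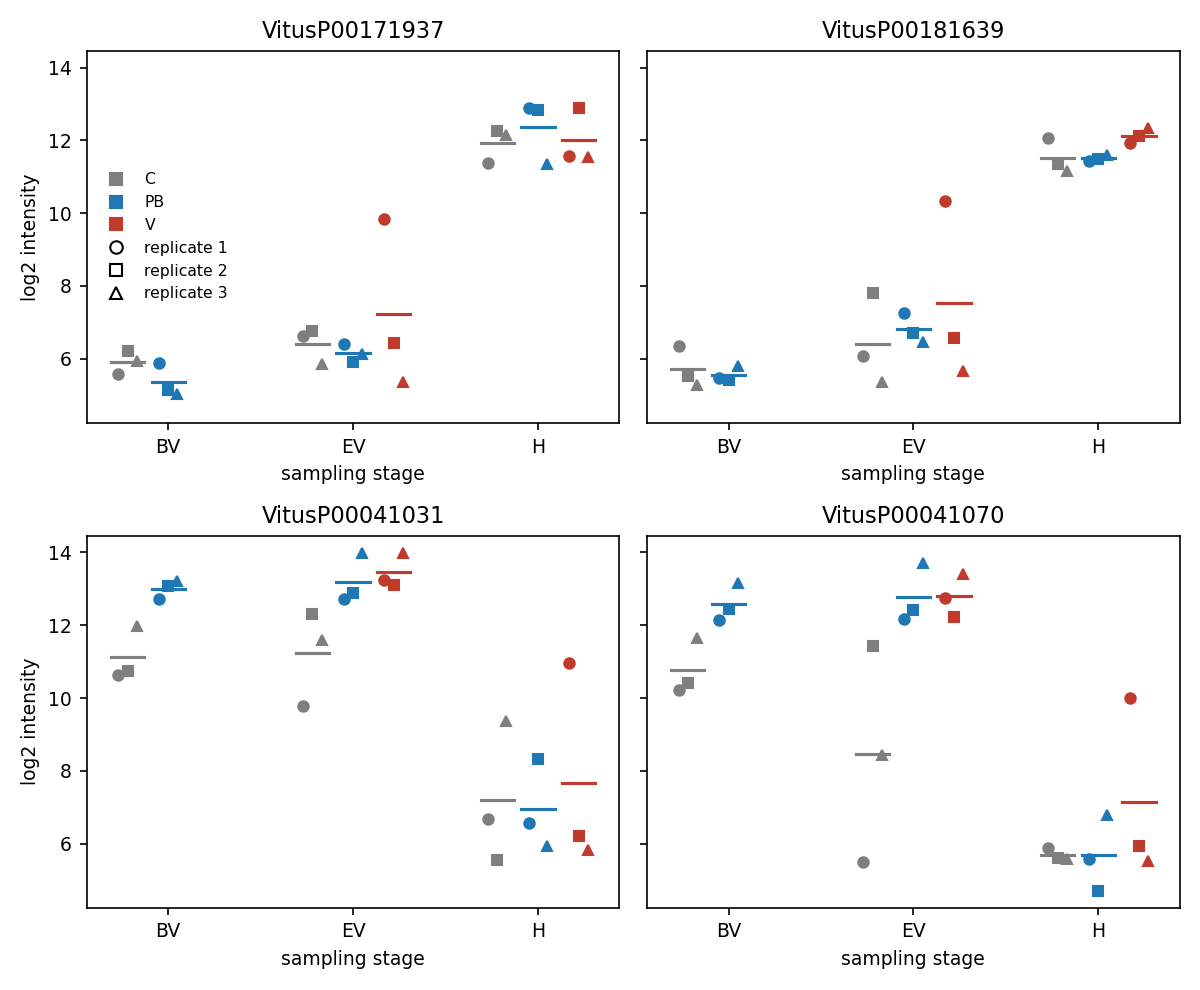
Log2 intensity of the 4 named probes on each array by sampling stage, for C, PB and V berries, with a symbol per replicate and a bar at the mean of 3 arrays. V at EV replicate 1 lies above the other V arrays at EV for both probes that increased (9.83 and 10.34), and V at H replicate 1 above the other V arrays at H for both that decreased (10.98 and 9.99).

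Both decreasing probes lie in 1 stretch of identifiers, looked for after their values were seen. From the first of them it was extended both ways through probes at least 8-fold lower in V, with at most 8 listed identifiers between such probes. The V arrays thus chose its ends and the probes counted in it, so their levels in it are a description. Of all 117999 grapevine probes, 516 were at least 8-fold lower and 4.63% were called lower. The stretch runs over 36 successive grapevine identifiers, of which 28 were at least 8-fold lower at harvest by their fitted difference and 22 were called lower. The remaining 8 did not reach a 4-fold decrease, and the highest of them differed by 1.33. Over the 28, the median log2 intensity was 13.17, 13.10 and 13.65 on the V arrays at EV and 11.54, 7.59 and 7.76 at H. The same 28 probes had medians of 12.90, 12.86 and 13.92 in PB at EV and 7.65, 8.35 and 7.66 at H, and on the 6 BV arrays of PB and C they lay between 11.30 and 13.24. In C the medians were 9.79, 12.34 and 11.56 at EV and 7.76, 6.78 and 9.61 at H. The medians of PB at H lay under the 95th percentile of the random-sequence probes on all 3 arrays, so the size of the fall in PB is limited by background. Also under it were V at H replicate 3, C at EV replicate 1 and C at H replicate 2. Harvest arrays were lower than EV arrays in all 3 kinds of berry, by little between C at EV replicate 1 and C at H replicate 3, and V at H replicate 1 was the brightest of the harvest arrays.

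Adjacent identifiers moved together over the whole array. Across all grapevine probes, Pearson's r between the V differences of probes 1, 2, 3 and 4 places apart in identifier order was 0.54, 0.36, 0.21 and 0.09, and it was -0.0004 at 100 places. Such probes share arrays, and the design holds several probes for a gene, so they are not independent. Of the 8884 called probes, 4911 (55.3%) had a called neighbour that moved the same way and 147 a called neighbour that moved the other way. Over the array, 2.9% of probes were called higher and 4.63% lower, and the share of all probes with such a neighbour was not computed. Neighbours are successive entries of the list, which holds about 4 of every 10 identifier numbers. Runs of at least 3 neighbours called in 1 direction numbered 235 upwards and 614 downwards and held 3163 probes. Among the downward runs, those of 4 probes (288) were more frequent than those of 3 (269) and those of 8 (14) more frequent than those of 7 (6). Among the upward runs, those of 4 probes (89) were less frequent than those of 3 (136), with 2 of 8 probes and 1 of 7. The longest run held 20 probes, all lower, with a median difference of -3.37 (range -4.08 to -1.99), beside -3.34 in PB and -2.97 in C. Its median level was 11.23, 10.99 and 11.03 on the V arrays at EV and 8.998, 7.25 and 8.13 at H.

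Whether these changes also took place in berries of vines stripped before bloom was asked with the PB arrays at EV and H, none of which the V fit had used. Most called probes had the same sign in PB as in V. The higher set had a median difference of 1.72 in PB, with 93.7% of its probes positive, against 51.9% of all probes. In PB, 1571 probes of the higher set (45.9%) were called higher at 0.05, against 4.09% of all probes, and 1 was called lower. The lower set had a median of -1.71 and was negative for 95.2%, against 48.1% of all probes. In this set 2226 probes (40.7%) were called lower in PB, against 4.35% of all probes, and 0 were called higher. Of the runs of adjacent identifiers, 222 of the 235 upward ones and 552 of the 614 downward ones had a median difference of at least 2-fold in the same direction in PB, and 1 and 0 one of at least 2-fold in the other. Of all single probes, 15.4% were at least 2-fold higher and 18% at least 2-fold lower in PB. In C the counts of runs in the same direction were 196 and 477, with 22.2% and 18.3% of all single probes.

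The courses across the background in V were looked up in PB. Of the 1588 that went from above the limit on all EV arrays to below it on all H arrays in V, 804 (50.6%) did so in PB, against 3.43% of all probes. Of the 955 that took the opposite course, 133 (13.9%) did so in PB, against 0.474% of all probes. In C the shares were 2.08% of the 1588 (0.279% of all probes) and 21.7% of the 955 (4.47% of all probes). The limit itself moved in these berries, from between 7.35 and 7.68 at EV to 8.67, 9.07 and 7.69 at H in PB and from 9.59 ± 1.04 to 7.94 ± 0.56 (SD, n = 3) in C, while in V it was 7.55 ± 0.02 and 7.61 ± 0.20. A higher limit at H in PB makes a fall below it easier to reach and a rise above it harder, and in C the reverse holds, so only the shares within 1 treatment can be set side by side. On the PB arrays at BV, 1188 of the 1588 (74.8%) were above the limit on all 3, beside 57.6% of all probes and 95% of the probes above it on all V arrays at EV. Below it on all 3 were 462 of the 955 (48.4%), beside 30.6% of all probes and 81.7% of those below it on all V arrays at EV.

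Over all 117999 probes the EV to H differences of V and PB had Pearson's r = 0.62 and Spearman's rho = 0.55, with r = 0.67 among probes brighter than the median. This is a description across probes, which share 1 normalization and are not independent. The size over all grapevine probes differed between the treatments, with a root mean square difference of 0.81 in V and 1.20 in PB, where the replicate spread alone would give 0.42 and 0.59. The random-sequence probes differed between the treatments too, with a root mean square difference of 0.56 in V and 0.78 in PB. The larger size in PB was thus not confined to probes with a grapevine target. The background level of the arrays also moved in PB, from between 5.90 and 6.00 at EV to 6.38, 6.56 and 6.03 at H, and hardly in V. Its part in the result was not tested.

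**Figure D3:**
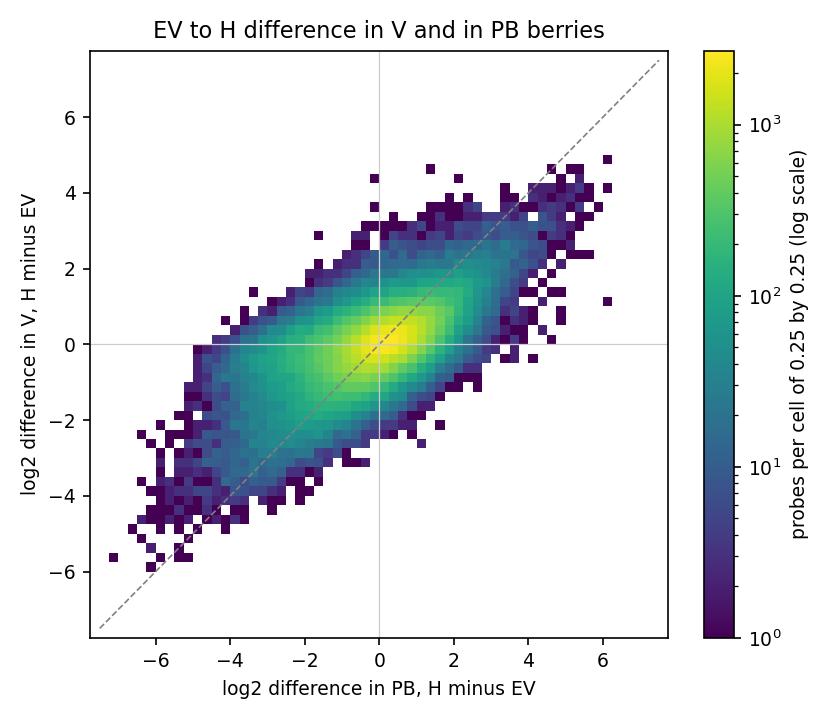
Log2 difference between H and EV in V (vertical) against that in PB (horizontal) for 117999 grapevine probes, as the number of probes per cell of 0.25 by 0.25 on a log colour scale, with the dashed line where both are equal. The cloud is tilted along the diagonal (Pearson's r = 0.62) and is wider along the PB axis.

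The opposite choice, probes picked in PB and read in V, gave the position of each V array along the PB step. By limma at 0.02 and 2-fold, 2515 probes (2.13%) were called in PB, 1122 rising and 1393 falling. In V, 1116 of the 1122 (99.5%) were positive and 1359 of the 1393 (97.6%) negative, against 52.6% and 47.4% of all probes, and 0 differed the opposite way by 2-fold or more. Their median difference was 1.86 and -2.11 in V, beside 2.87 and -3.03 in PB, whose arrays chose them. Among the rising probes 989 (88.1%) lay above all V arrays of EV at harvest, against 17.7% of all probes, and 629 (56.1%) were in the higher set, against 2.9%. Among the falling probes 1150 (82.6%) lay below them, against 16.8% of all probes, and 879 (63.1%) were in the lower set, against 4.63%.

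Each array was then placed between the mean of PB at EV (0%) and that of PB at H (100%), averaged over these 2515 probes. The same PB arrays chose the probes and set both ends, which favours a large PB step. A position of V short of 100% therefore cannot be read as a smaller step or less ripening. V at EV lay at 27.0%, -2.87% and 3.26% in replicates 1, 2 and 3, and V at H at 71.0%, 73.4% and 77.7%. The groups did not overlap, and the mean position rose from 9.14% ± 15.8 to 74.0% ± 3.39 (SD, n = 3), a difference of 64.9 percentage points (exact permutation test, two-sided p = 0.1, the smallest possible here). EV replicate 1 was ahead of the other EV arrays mainly in the rising probes, where it stood at 40.3% against -2.32% and 0.984%, and less in the falling ones, at 16.4% against -3.32% and 5.09%. At harvest the V arrays were close in the rising probes, at 77.5%, 76.2% and 75.6%, and further apart in the falling ones, at 65.8%, 71.1% and 79.4%. For orientation, PB at H lay between 91.1% and 105%, C at EV at 56.1%, 25.9% and 42.7%, C at H between 73.1% and 96.6%, and the 6 arrays at BV between -6.61% and -0.641%. Leaving out V arrays gave differences between 58.9 and 73.8 percentage points. The axis itself rested on single PB arrays, since 0 probes were called in PB without any 1 of its EV arrays or H replicate 1, and 16285 without H replicate 3, on which the difference in V was 32.8 percentage points. With the replicate number as a block, 0 probes were called in PB, although no source used here ties that number to a block.

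**Figure D4:**
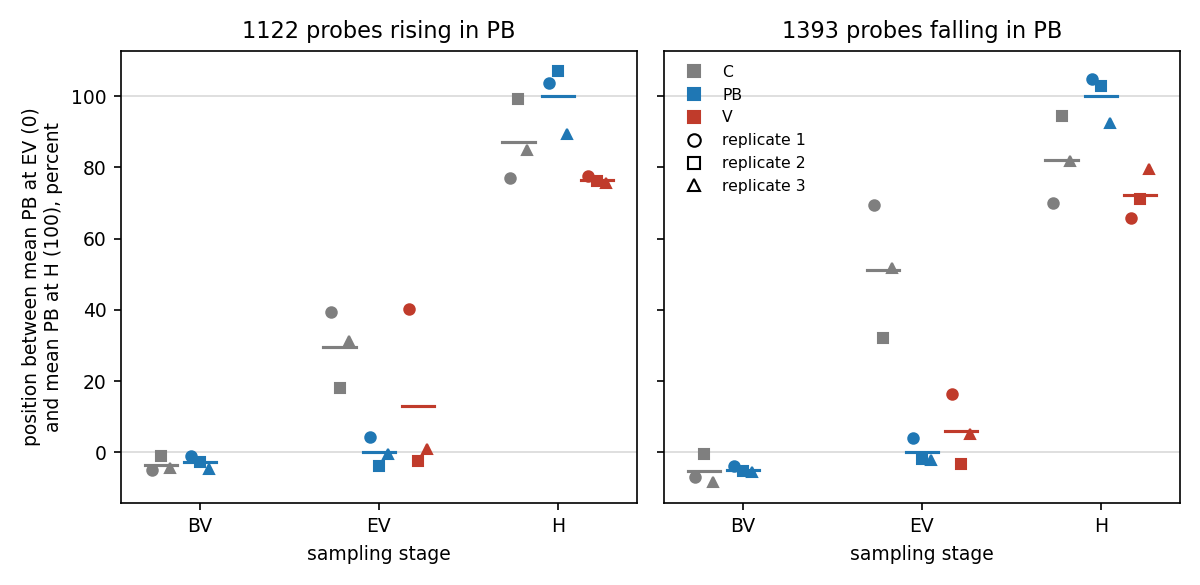
Position of each array between the mean of PB at EV (0 percent) and of PB at H (100 percent), averaged over the probes rising (left) and falling (right) in PB, by sampling stage, with a symbol per replicate and a bar at the group mean. V arrays at H lie between 65.8 and 79.4 percent in both panels, and V at EV replicate 1 lies at 40.3 percent in the rising probes.

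The difference between the V and PB steps was also tested directly, probe by probe, as an interaction in a limma fit of the 12 arrays. It called 0 of 117999 probes (0%) at 0.02 and 0 at 0.05, with a lowest adjusted p of 0.3965 and 12657 probes (10.7%) at an unadjusted p below 0.05. A model over all 24 arrays also called 0. This test could not see small differences, since the 95% interval of the difference had a median half-width of 1.26 on the log2 scale, or 2.39-fold. In the higher set the step of V was below that of PB by a median of 0.13 (V minus PB, -0.13), and in the lower set the difference was -0.17. The V arrays chose both sets, which favours a large V step, so these medians do not estimate a difference between the treatments. Without PB at H replicate 3 the interaction called 3551 probes, 2987 of them more positive in V.

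The same step in berries of undefoliated vines was broadly alike for the called probes and looser over the whole array. In C the higher set had a median difference of 1.42, was positive for 81.8% of its probes (54.5% of all probes) and held 505 probes called higher (14.8%, against 1.53% of all). The lower set had a median of -1.40, was negative for 85.7% (45.5% of all probes) and held 831 probes called lower (15.2%, against 1.62% of all). In the other direction, 43 probes of the higher set were called lower (1.26%, against 1.62% of all) and 0 of the lower set higher (1.53% of all). A fall of at least 2-fold in C was found for 332 probes of the higher set (9.71%, against 18.3% of all). A rise as large was found for 151 of the lower set (2.76%, against 22.2% of all). Over all probes the V and C differences had Pearson's r = 0.39 and Spearman's rho = 0.34, with r = 0.56 among probes brighter than the median. The background level of the C arrays fell from 6.73 ± 0.42 at EV to 6.15 ± 0.22 at H (SD, n = 3). Its part was not tested, and it cannot be told apart from the label set.

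Tested against C in a limma interaction over 12 arrays, 0 of 117999 probes (0%) differed at 0.02, with 18362 (15.6%) at an unadjusted p below 0.05, and 832 (0.705%) differed at 0.05. Of the 832, 623 were more positive in V and 209 more negative. Where the steps differed, C had the largest fitted differences. The 623 probes had a median difference of 1.00 in V and -2.92 in C, and 603 of them took opposite signs. Their median level was 6.38 in V at EV and 7.53 at H, while in C it was 6.82 at BV, 10.13 at EV and 6.95 at H. The 209 probes had medians of -0.44 in V and 2.65 in C, with levels of 8.79 and 8.02 in V and of 8.99, 5.88 and 8.55 in C from BV to H. In PB, whose step was 1.18 and -1.18 for these groups, the median level at EV was 6.63 and 8.78, near that of V. The limit from the random-sequence probes averaged 7.55 and 7.61 in V at EV and H, and 7.43, 9.59 and 7.94 in C from BV to H. In V and C the median of the 623 probes lay under it at each stage except C at EV. That of the 209 lay under it only in C at EV. Much of the course of the 623 was thus at background, where a fold change has little meaning. For the 209, in V and C, this held only for C at EV, the level from which their difference of 2.65 in C starts. Without C at EV replicate 2, 9768 probes differed at 0.02, and without any other of the 12 arrays 0 did.

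The called probes were also followed through veraison itself, from BV to EV in PB, on arrays outside the V fit. They differed over this step somewhat more than the array as a whole, with 89.5% of the higher set and 81.9% of the lower set within 2-fold, against 93.7% of all probes, and the excess ran in the direction of the later step. The median difference was 0.17 in the higher set and -0.28 in the lower set in PB, against 0.01 over all probes. In C it was 0.44 and -0.47, against -0.02. From BV to EV in C the label set changed too and the background level rose from 5.90 to 6.73. Stage and label set cannot be told apart there. In the higher set 7.31% had already gained at least 2-fold and 3.19% had lost as much, against 2.46% and 3.89% of all probes. In the lower set 15.2% had already lost at least 2-fold and 2.86% had gained it. The median level of the higher set in PB was 7.56 at BV, 7.74 at EV and 9.78 at H, and that of the lower set 10.45, 10.03 and 7.78. Among the runs of adjacent identifiers, 20 of the 235 upward ones had a median gain of at least 2-fold before EV and 99 of the 614 downward ones a median loss. In the other direction 4 upward and 10 downward runs changed by as much. Of all single probes, 2.46% gained and 3.89% lost at least 2-fold over this step.

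**Figure D5:**
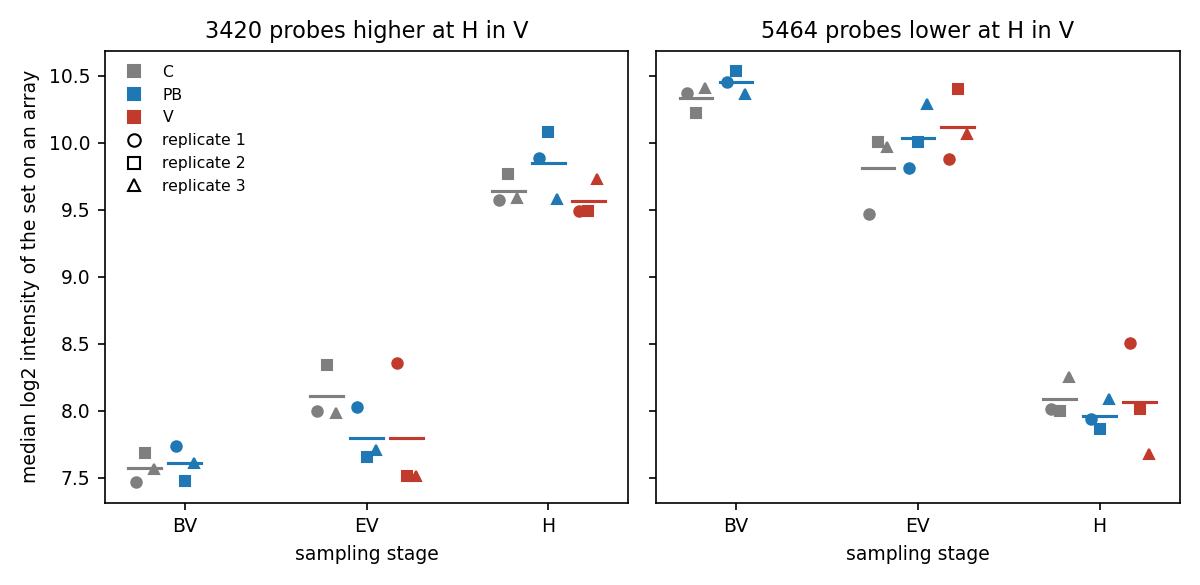
Median log2 intensity on each array of the 3420 probes higher (left) and the 5464 probes lower (right) at H in V, by sampling stage for C, PB and V, with a symbol per replicate and a bar at the group mean. In PB and C, whose arrays did not choose the sets, all arrays at H lie above those at EV on the left and below them on the right.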

How the data were processed

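Total RNA of seedless berry pools was hybridised by the authors to 1-colour (Cy3) NimbleGen arrays, 3 for each of 8 groups. The deposited table holds a normalized linear fluorescence intensity per probe in 139363 rows, of which 137090 had values (117999 grapevine and 19091 random-sequence probes). The software for scanning, background correction and normalization is not given in the sources used here. Intensities ran from 20.35 to 61689 and were put on the log2 scale with no further scaling or filter. No count of molecules lies behind them, and their precision is limited by the number of arrays.

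The 6 V arrays were fitted with limma 3.58.1 (R 4.3.3; lmFit and eBayes), with Benjamini-Hochberg adjustment over all grapevine probes, and the PB and C steps and the interactions with V likewise on their own 6 or 12 arrays. The study's methods give SAM at a false discovery rate of 2%, so the threshold was an adjusted p below 0.02 with a 2-fold difference. Since it called 0 probes in V, sets and named probes were taken at 0.05. Named were the called probes with the largest differences, 2 in each direction, whose arrays at H and EV did not overlap. The interval of a difference is the 95% t interval of the fit. Array values were compared by exact permutation tests. Groups and replicates came from sample titles, and the 3 arrays of a group are pools from 3 blocks, which the groups share, so p-values measure the spread between these pools. No source used here ties a replicate number to a block. The comparisons and lists were chosen with earlier results of these data known. The scripts were tested on simulated data. The alternatives tried were other scalings, filters, models, thresholds and left-out arrays.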

Additional observations from a re-analysis of the deposited data

How the results depend on the processing

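At an adjusted p below 0.02, the count of 0 probes in V also held with median centring and MAD scaling, quantile normalization, the methods' negative-control filter, the background level as a covariate and a minimum fold of 1.5 or none. It became 787 without the dimmest 25% of probes, 3442 in the model over all 24 arrays, 4657 with trend and robust estimation, 11325 by SAM, 12453 with array weights and 8884 at 0.05. A model of the 18 arrays labelled with the defoliation experiment, added after seeing the data, gave 5670. At 0.05, chosen after the count at 0.02 was seen, the 8884 probes became 5757 with 24 arrays, 15434 by SAM, 17554 with array weights and 1579 with the covariate, and lay between 7474 and 10648 under the other alternatives with all 6 arrays. Leaving out single arrays gave 0 to 1673 probes at 0.02 and 0 to 7267 at 0.05. The cause of these differences was not tested.

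In the 24-array model 13994 probes were called in PB, 23295 in C and 1269 for V minus C, which had 832 at 0.05. Leaving out single arrays gave 0 to 16285 in PB, 0 to 10179 in C, 0 to 3551 for V minus PB, 0 to 9768 for V minus C and 0 to 40 random-sequence probes. The difference in position along the PB step lay between 57.8 and 68.4 percentage points under the other axes, added after seeing the data, and between 32.8 and 73.8 with single arrays left out.

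With the replicate number as a block, 0 probes were called at 0.02 in V, C and both interactions, 7474 at 0.05 in V, and 0 in PB. Same-numbered V arrays at EV and H deviated from their group means with correlations of 0.14, -0.085 and 0.097, so the numbers were not taken to pair the samples. The 4 named probes kept their direction in all 16 alternatives run on them. The first 2 stayed below 0.05 in 10 and the last 2 in 11. The median over the probes of a gene was not run, since no table used here pairs probes with genes.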
